A study of Mus musculus with 18 samples.

Results

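Imprinted genes are expressed mainly from the copy inherited from the mother or mainly from the copy inherited from the father. The set described here holds 40 mouse genes chosen by symbol, all with a value in the files, out of 34850 genes with a value. Of them 20 are known as maternally expressed and 19 as paternally expressed, and the remaining gene, Gnas, makes transcripts from either copy. Imprinting of the maternally expressed Cd81, Tssc4, Nap1l4, Ube3a, Asb4, Ppp1r9a, Commd1, Trappc9 and Blcap is known mainly in placenta, brain or neurons. The other genes, all paternally expressed ones among them, were classed here as imprinted in many tissues. This classing is coarse, as it holds Ascl2, a gene of the placenta. The class counts, medians and sums below thus compare lists that differ in this too. RNA was read by SC3-seq, a method that sequences the 3′ ends of transcripts, from 1 ng of RNA per library, in 18 libraries that form 9 groups of 2.

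The groups with a drug or growth factor were cultured germ cells. Day-4 primordial germ cell-like cells (PGCLCs), the germ cell precursors made in vitro, were grown for 7 days on m220-5 feeder cells with cyclosporin A (d4c7 CsA), a calcineurin inhibitor, in conditions named FGF10 and FGF2 (d4c7 FGF10, d4c7 FGF2), or with forskolin and rolipram (d4c7 FR10), which raise cyclic AMP. Germ cells taken from embryos at E9.5 were grown for 5 days with CsA (E9.5c5 CsA) or FR10 (E9.5c5 FR10). The uncultured groups were day-4 PGCLCs (d4 PGCLC), epiblast-like cells (EpiLC) and embryonic stem cells (ESC). The ESCs were kept in 2i and LIF, the EpiLCs were made from them with activin A, FGF2 and KSR, and the PGCLCs from EpiLCs with BMP4, LIF, SCF and EGF. All PGCLC, EpiLC and ESC groups carried the reporters Blimp1-mVenus and Stella-ECFP, and the E9.5 cells carried Stella-EGFP. The PGCLCs were sorted for mVenus and the E9.5 cells for EGFP, while ESCs and EpiLCs were not sorted. The strain was C57BL/6 in ESCs, EpiLCs and uncultured PGCLCs, B6D2F1 in the cultured PGCLCs and B6D2F1 x C57BL/6 in the E9.5 cells, so the effect of strain cannot be told apart from that of culture. The medium in the protocol holds SCF, forskolin and rolipram. Whether the CsA and FGF cultures also had forskolin and rolipram, at which doses CsA and the FGFs were used, and whether FGF10 names a factor or an amount, the labels do not say. The feeder cells had been treated with mitomycin C.

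Imprinting rests on DNA methylation that is laid down in the egg or sperm at control regions, kept through early development by DNMT1, UHRF1 and the zinc finger proteins ZFP57 and ZFP445, and erased in primordial germ cells so that it can be set anew according to sex. Many imprinted genes act on growth: Igf2, a growth factor, is held in check by Igf2r, its clearance receptor, and Cdkn1c, Phlda2 and Grb10 restrain cell division, placental growth and insulin signalling. The values here add up both parental copies, so they give how much RNA a gene made and not which copy made it.

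Promoter windows were taken from RefSeq (GRCm38.p6), 250 bases before to 50 after each annotated start, and 33 of the 40 genes matched, with 52 windows of 300 bases. The 4 windows printed belong to the genes around which the results below turn: Phlda2, which was called in the most comparisons, Meg3 and Peg3, which moved in opposite directions at PGCLC formation, and Plagl1, highest in ESCs. Capitals mark TGCCGC on either strand (GCGGCA when read on the other), the letters that ZFP57 recognises when methylated, and TGACGTCA, the cyclic AMP response element, which reads the same on both strands. TGACGTCA was chosen after the letters of these windows had been read. The windows lie at chr7:143502475-143502774 on the minus strand (Phlda2), chr12:109540746-109541045 on the plus strand (Meg3), chr7:6730370-6730669 on the minus strand (Peg3) and chr10:13090582-13090881 on the plus strand (Plagl1).
Phlda2: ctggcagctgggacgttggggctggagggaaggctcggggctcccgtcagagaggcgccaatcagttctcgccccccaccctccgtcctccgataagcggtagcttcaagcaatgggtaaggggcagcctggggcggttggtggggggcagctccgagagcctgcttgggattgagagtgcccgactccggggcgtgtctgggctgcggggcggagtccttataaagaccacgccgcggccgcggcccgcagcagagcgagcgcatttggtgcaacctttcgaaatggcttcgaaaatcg
Meg3: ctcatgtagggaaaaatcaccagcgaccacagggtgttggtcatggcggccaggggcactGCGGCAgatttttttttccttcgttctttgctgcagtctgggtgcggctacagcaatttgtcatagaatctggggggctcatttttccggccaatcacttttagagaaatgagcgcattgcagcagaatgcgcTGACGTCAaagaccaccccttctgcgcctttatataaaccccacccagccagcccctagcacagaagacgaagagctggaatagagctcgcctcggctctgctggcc
Peg3: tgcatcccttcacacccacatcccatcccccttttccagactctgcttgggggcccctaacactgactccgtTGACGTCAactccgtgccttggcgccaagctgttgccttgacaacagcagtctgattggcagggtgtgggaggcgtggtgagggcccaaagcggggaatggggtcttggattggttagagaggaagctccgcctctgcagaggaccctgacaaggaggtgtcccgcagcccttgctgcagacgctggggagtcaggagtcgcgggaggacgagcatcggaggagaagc
Plagl1: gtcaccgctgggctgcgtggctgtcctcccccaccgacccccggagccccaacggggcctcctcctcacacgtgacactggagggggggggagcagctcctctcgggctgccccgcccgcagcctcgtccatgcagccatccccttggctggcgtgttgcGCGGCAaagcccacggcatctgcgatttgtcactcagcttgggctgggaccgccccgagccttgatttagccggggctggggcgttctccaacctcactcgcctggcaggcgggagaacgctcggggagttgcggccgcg
TGCCGC was found in 12 of the 52 windows (23.08%), in 4 of 21 windows of maternally expressed genes (19.05%) and in 8 of 27 of paternally expressed genes (29.63%), against 3813 of 32851 windows of all genes (11.61%). The 2 Mest windows with a match start 3 bases apart and hold the same DNA. With overlapping windows merged, 11 of 49 stretches of the imprinted genes held TGCCGC (22.45%), 7 of 25 of paternally expressed genes (28%), against 3356 of 29061 of all genes (11.55%). The windows of the imprinted genes also held more CG pairs, with a median of 14.5 against 7 over all windows, and TGCCGC itself contains a CG pair. The 11 genes with a match were Commd1, Grb10, Igf2, Meg3, Mest, Nap1l5, Nnat, Plagl1, Snrpn, Zdbf2 and Zim1. TGACGTCA was found in 4 of the 52 windows (7.692%), those of Meg3, Peg3, Usp29 and Zdbf2, against 588 of 32851 (1.79%). In the gene annotation Peg3 and Usp29 start 97 bases apart on opposite strands, and their windows overlap by 263 bases, so their match is the same stretch of DNA. With overlapping windows merged, TGACGTCA was in 3 of 49 stretches (6.122%) against 496 of 29061 (1.707%). Both shares count the Meg3 and Peg3 windows, in which the motif was read before it was chosen. The choice thus raised the shares, which do not measure an excess, and outside that DNA Zdbf2 alone matched. In the Meg3 window both motifs occur and share no base. A match describes the letters only.

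Inferred depth ran from 2129398 to 7547665 reads per library, so that 3 reads equal 0.397 to 1.41 RPM (reads scaled to a library total of 1000000). The replicates of d4c7 FGF2, E9.5c5 FR10 and E9.5c5 CsA were furthest apart, with a median absolute log2 difference over tested genes of 0.468, 0.426 and 0.601, against 0.193 to 0.29 within the other 6 groups. In each of these 3 pairs replicate 2 had fewer genes above 0 although it was the more deeply read, and results that rest on these 3 libraries are given also without them. Most markers went as the labels say. All 7 naive pluripotency markers fell and all 5 primed epiblast markers rose in EpiLCs relative to ESCs, and 6 of 8 germ cell markers rose in day-4 PGCLCs relative to EpiLCs. Dazl and Ddx4 went the other way and were not called. Dazl had 2.35 and 3.48 RPM in day-4 PGCLCs and 12.2 and 11.2 RPM in EpiLCs. Ddx4 had 5.17 and 12.2 RPM in day-4 PGCLCs and 18.7 and 18.6 RPM in EpiLCs. Of 13 feeder and fibroblast markers, Lum was listed at 0 in every library and Thy1 in all 12 cultured libraries. Others were present in the cultured libraries, with Dcn at 5.47 to 88.2 RPM and Col3a1 at 0 to 68.9 RPM. The 13 also summed to 89.6 and 105 RPM in ESCs, where Timp1 had 81.1 and 95.6 RPM, and to 106 and 103 RPM in EpiLCs.

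All 40 imprinted genes were above 0 in at least 1 library and 24 were above 0 in all 18. Of them 27 reached 10 RPM in at least 2 libraries and were tested, 14 of 20 maternally expressed genes, 12 of 19 paternally expressed genes and Gnas. By group mean, 11 of the 27 were highest in day-4 PGCLCs, 6 in EpiLCs, 4 in E9.5c5 FR10, 3 in d4c7 FGF2, 2 in ESCs and 1 in E9.5c5 CsA. The highest group was not counted over all genes tested. Their median log2 change was itself 0.34 in day-4 PGCLCs, both over EpiLCs and over ESCs. The 20 maternally expressed genes summed to 1094 and 1016 RPM in the day-4 libraries, the highest sums of all, and to between 337 and 481 RPM in the 12 cultured libraries. The 19 paternally expressed genes summed to 229 and 235 RPM in ESCs, 328 and 306 RPM in EpiLCs, 787 and 981 RPM at day 4 and between 479 and 759 RPM after culture. The maternal sum of every cultured library thus lay below those of ESCs, at 571 and 583 RPM, while the paternal sum of every cultured library lay above those of ESCs. A few genes carry much of these sums. Meg3 had 144 and 132 RPM in ESCs and 1.14 to 14.1 RPM in the cultured libraries. Peg3 had 44.5 and 47.2 RPM in ESCs and 163 to 394 RPM in the cultured libraries, and Slc38a4 12.5 and 17.2 RPM against 70.1 to 185 RPM. The sums thus do not describe each gene of a class, and no test was made of them.

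**Figure D1:**
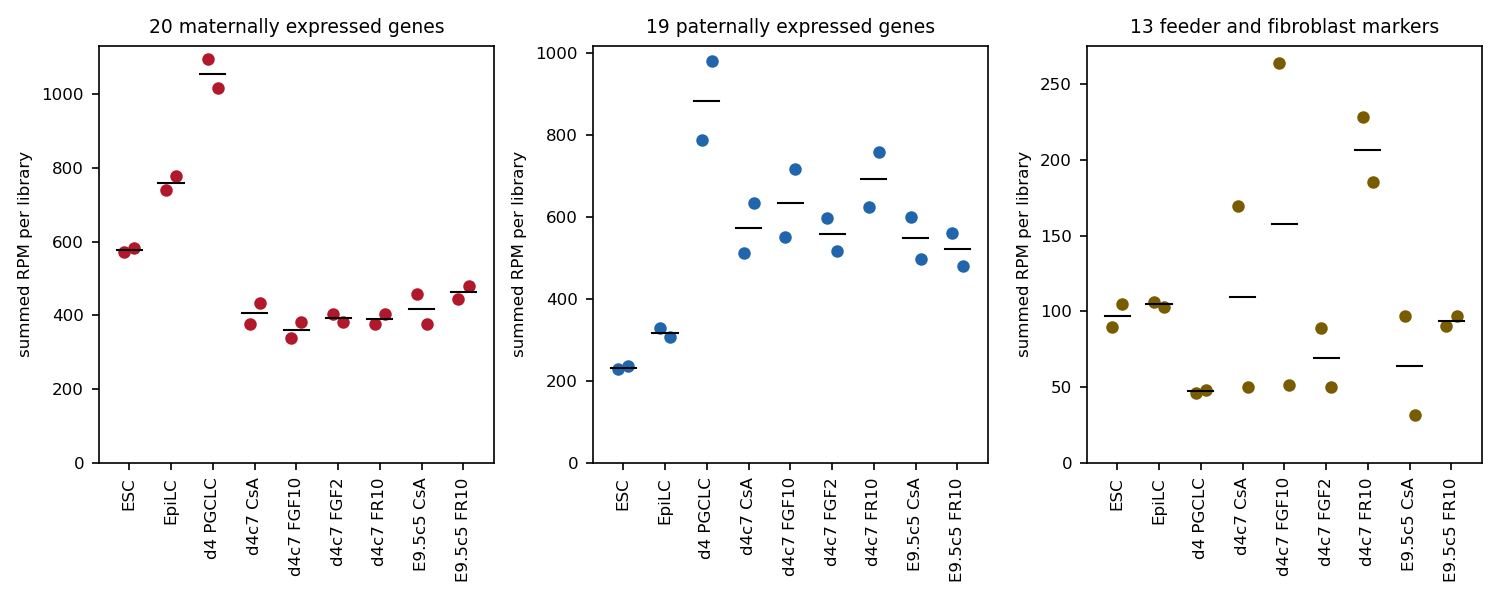
Summed RPM (vertical axis) of the 20 maternally expressed genes, the 19 paternally expressed genes and the 13 feeder and fibroblast markers in each of the 18 libraries, by group. The maternal sums peak at 1094 and 1016 RPM in day-4 PGCLCs and lie between 337 and 481 RPM in the cultured groups, where the paternal sums lie between 479 and 759 RPM.

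**Figure D2:**
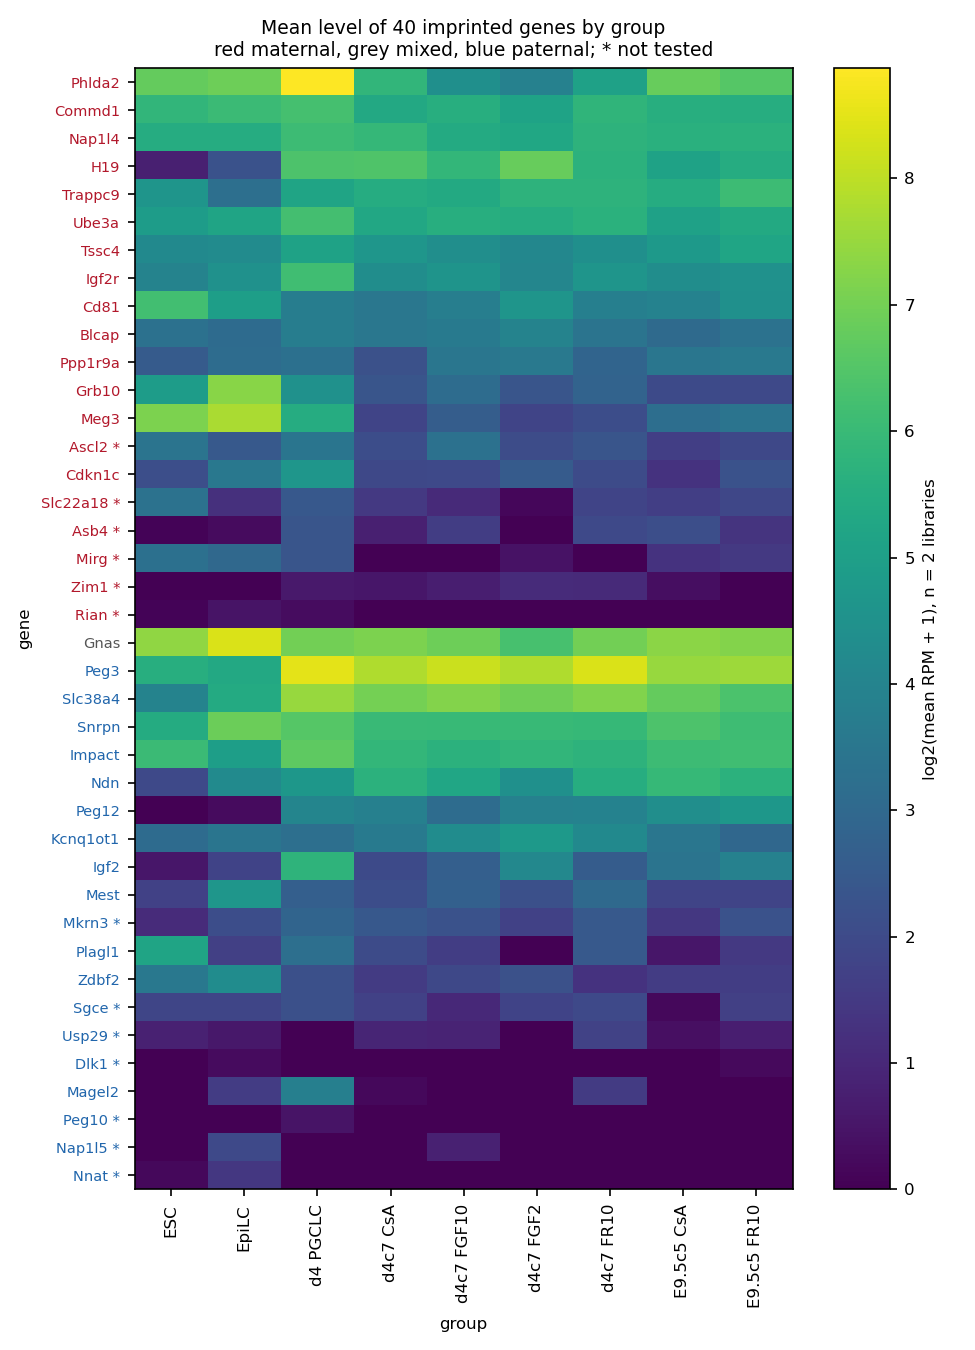
Mean level of each of the 40 imprinted genes (rows) in the 9 groups (columns), as log2(mean RPM + 1) in colour, with genes that were not tested marked by an asterisk. Phlda2 and Peg3 are highest in day-4 PGCLCs, Meg3 and Grb10 in EpiLCs, and Dlk1, Rian and Peg10 stay near 0 throughout.

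In EpiLCs, which model the epiblast, 7 of the 27 tested imprinted genes were higher and 4 lower than in ESCs. Of all 9561 tested genes 16% were called at an adjusted p under 0.05 (limma on log2(RPM + 1), Benjamini-Hochberg), 7.09% higher and 8.86% lower. The paternally expressed zinc finger gene Plagl1 had 1.71 and 2.71 RPM in EpiLCs, against 39.2 and 31.6 RPM in ESCs. It fell by 3.51 ± 0.56 on the log2 scale (SE, adjusted p = 0.000259). Its levels in the 2 groups do not overlap, nor do those of the other genes called here. The same holds for genes that were not called, such as Phlda2, Meg3 and Tssc4, so it adds nothing to the calls. The share over all genes tested was not counted.

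The genes that rose included 4 paternally expressed ones. Ndn, which encodes the growth suppressor necdin, had 22.1 and 14.3 RPM in EpiLCs and 0.927 and 4.81 RPM in ESCs, a rise of 2.49 ± 0.41 (adjusted p = 0.000395). Snrpn, which encodes a splicing protein and is a neighbour of Ndn, had 123 and 110.3 RPM in EpiLCs and 46.2 and 39.2 RPM in ESCs, a rise of 1.43 ± 0.24 (adjusted p = 0.000429). Mest, which encodes a hydrolase-like protein, had 22.5 and 25.9 RPM in EpiLCs and 2.65 and 1.85 RPM in ESCs, a rise of 2.96 ± 0.65 (adjusted p = 0.00422). Mest overlaps Copg2 on the opposite strand, whose own rise was 2.53 ± 0.36 (adjusted p = 0.000107). The labels do not say whether reads were counted by strand, so reads of the pair cannot be told apart where the genes overlap. The same holds for each of the 16 among the 40 genes that overlap another named gene in the annotation. The amino acid transporter gene Slc38a4 had 45.9 and 37.1 RPM in EpiLCs against 12.5 and 17.2 RPM in ESCs, a rise of 1.43 ± 0.31 (adjusted p = 0.00399).

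Among maternally expressed genes the adaptor gene Grb10 had 154 and 155 RPM in EpiLCs and 30.7 and 26.6 RPM in ESCs, a rise of 2.39 ± 0.57 (adjusted p = 0.00749). The noncoding RNA H19 rose by 1.43 ± 0.38 (adjusted p = 0.0155) with very low levels, 2.48 and 5.03 RPM in EpiLCs and 0.662 and 0.74 RPM in ESCs. Trappc9, which encodes a vesicle transport protein, fell by 1.40 ± 0.30 (adjusted p = 0.00305), and the tetraspanin gene Cd81 fell by 1.19 ± 0.38 (adjusted p = 0.0419). Gnas, which encodes the stimulatory G protein subunit that activates adenylyl cyclase, rose by 0.95 ± 0.31 (adjusted p = 0.044), with 343 and 313 RPM in EpiLCs and 167 and 172 RPM in ESCs. Impact, a regulator of translation that is expressed from the paternal copy, fell by 1.13 ± 0.27 (adjusted p = 0.00677).

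The median log2 change was 1.00 over the 12 tested paternally expressed genes and 0.23 over the 14 maternally expressed genes, against 0.01 over all genes tested. Without any 1 of the 4 libraries 6 or 7 genes were called in place of 11. Cd81 and Gnas lost the call whichever library was left out, H19, Grb10, Impact, Slc38a4 and Trappc9 lost it without at least 1 of them, and Plagl1, Ndn, Snrpn and Mest kept it throughout. Fewer of all genes were called as well whichever library was left out. For ESCs, EpiLCs and day-4 PGCLCs nothing says that the replicates came from separate cultures, so the spread within these groups may be technical. The p-values rest on a spread shared over all 9 groups, the cultured ones included. A fit of ESCs, EpiLCs and day-4 PGCLCs alone called 1624 genes higher and 1638 lower in place of 678 and 847. Of the imprinted genes it called 11 higher and 4 lower.

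Formation of day-4 PGCLCs from EpiLCs was the step with the most calls. Of the 27 tested imprinted genes 12 rose and 6 fell, and 39.6% of all tested genes were called, 27.5% higher and 12.1% lower. The median over all genes tested was 0.34 on this scale. After median-ratio scaling of the libraries the median of all genes was 0.00, with 1645 genes higher and 1801 lower in place of 2629 and 1155, and of the imprinted genes 11 rose and 7 fell. In these bulk samples fewer cells of a type and less RNA per cell cannot be told apart.

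Peg3, a paternally expressed zinc finger gene, had 281 and 449 RPM in day-4 PGCLCs and 45.9 and 33.7 RPM in EpiLCs. It rose by 3.14 ± 0.28 (adjusted p = 2.67e-07). The maternally expressed H19 had 101 and 65.3 RPM in day-4 PGCLCs, against 2.48 and 5.03 RPM in EpiLCs, a rise of 4.17 ± 0.38 (adjusted p = 4.2e-07). Its paternally expressed neighbour Igf2, the growth factor, had 55.4 and 51.9 RPM in day-4 PGCLCs and 3.43 and 1.55 RPM in EpiLCs, a rise of 4.02 ± 0.76 (adjusted p = 0.000514). So both genes of the pair, which are known to be expressed from opposite parental copies, were higher in both day-4 libraries than in either EpiLC library. The receptor gene Igf2r, with 63.4 and 78.4 RPM in day-4 PGCLCs and 22.7 and 19.7 RPM in EpiLCs, rose by 1.69 ± 0.42 (adjusted p = 0.00449).

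Phlda2, a maternally expressed gene that restrains placental growth, had 478 and 459 RPM in day-4 PGCLCs and 119.6 and 120.3 RPM in EpiLCs, a rise of 1.96 ± 0.24 (adjusted p = 1.05e-05). Cdkn1c, which encodes a cyclin-dependent kinase inhibitor and lies near Phlda2, had 24.4 and 23.7 RPM in day-4 PGCLCs and 10.3 and 11.2 RPM in EpiLCs and did not pass, while it rose relative to ESCs by 2.54 ± 0.65 (adjusted p = 0.00572). Slc38a4 rose by 2.11 ± 0.31 (adjusted p = 6.53e-05), to 180.3 and 183 RPM in day-4 PGCLCs. Peg12, of the FRAT family that binds the kinase GSK3, had 13.6 and 17.4 RPM in day-4 PGCLCs and 0 and 0.387 RPM in EpiLCs, and its fitted rise of 3.80 ± 0.49 (adjusted p = 1.46e-05) depends on the pseudocount. Magel2, which encodes a ubiquitin ligase cofactor and neighbours Ndn, had 12.7 and 13.5 RPM in day-4 PGCLCs and 2.86 and 1.16 RPM in EpiLCs, a rise of 2.29 ± 0.53 (adjusted p = 0.00274). Trappc9 rose by 1.99 ± 0.30 (adjusted p = 6.74e-05), Impact by 1.78 ± 0.27 (adjusted p = 6.8e-05), the ubiquitin ligase gene Ube3a by 1.04 ± 0.23 (adjusted p = 0.00157) and Plagl1 by 1.52 ± 0.56 (adjusted p = 0.0394). Trappc9, Impact and Plagl1 had all been lower in EpiLCs than in ESCs. Both comparisons share the EpiLC libraries, so the fall and the rise are not independent.

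The 6 genes that fell at this step included 3 maternally expressed ones. Meg3, the noncoding RNA of the Dlk1 domain on chromosome 12, had 44.6 and 42.7 RPM in day-4 PGCLCs and 205 and 228 RPM in EpiLCs, and it fell by 2.28 ± 0.49 (adjusted p = 0.00145). Grb10 fell by 2.79 ± 0.57 (adjusted p = 0.00105), to 18.8 and 24.5 RPM in day-4 PGCLCs against 154 and 155 RPM in EpiLCs. Cd81 fell by 1.29 ± 0.38 (adjusted p = 0.0132). Among the others, Gnas fell by 1.39 ± 0.31 (adjusted p = 0.00189), Mest by 1.96 ± 0.65 (adjusted p = 0.025) and the zinc finger gene Zdbf2 by 2.25 ± 0.75 (adjusted p = 0.0245). Copg2 fell with Mest, by 3.07 ± 0.36 (adjusted p = 7.09e-06).

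By parental class, 7 of 12 tested paternally expressed genes rose and 2 fell (median 1.65), and 5 of 14 maternally expressed genes rose and 3 fell (median 0.75). Against ESCs, the comparison that spans both steps and shares the day-4 libraries with the one above, 12 genes rose and 3 fell where 34.5% of all genes were called, 24.3% higher and 10.2% lower, with 7 paternally expressed genes higher and 1 lower and 5 maternally expressed genes higher and 2 lower. After median-ratio scaling the counts of imprinted genes were the same, with 1371 of all genes higher and 1504 lower in place of 2328 and 971. H19 rose by 5.59 ± 0.38 (adjusted p = 2.21e-08), Igf2 by 5.28 ± 0.76 (adjusted p = 5.43e-05), Slc38a4 by 3.55 ± 0.31 (adjusted p = 4.22e-07), Peg3 by 2.93 ± 0.28 (adjusted p = 8.4e-07), Ndn by 2.94 ± 0.41 (adjusted p = 4.54e-05), Igf2r by 2.19 ± 0.42 (adjusted p = 0.000738), Phlda2 by 2.11 ± 0.24 (adjusted p = 6.25e-06), Ube3a by 1.30 ± 0.23 (adjusted p = 0.000309) and Snrpn by 1.10 ± 0.24 (adjusted p = 0.00206). Peg12 and Magel2 passed too, at adjusted p-values of 1.03e-05 and 4.07e-05, and since both are listed at 0 in both ESC libraries no fold is given. Cd81 fell by 2.48 ± 0.38 (adjusted p = 0.000109), Plagl1 by 2.00 ± 0.56 (adjusted p = 0.0105) and Meg3 by 1.64 ± 0.49 (adjusted p = 0.0154). The median over the 12 paternally expressed genes was 2.01, or 1.05 without Peg12 and Magel2, over the 14 maternally expressed genes it was 0.66, and over all genes 0.34.

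**Figure D3:**
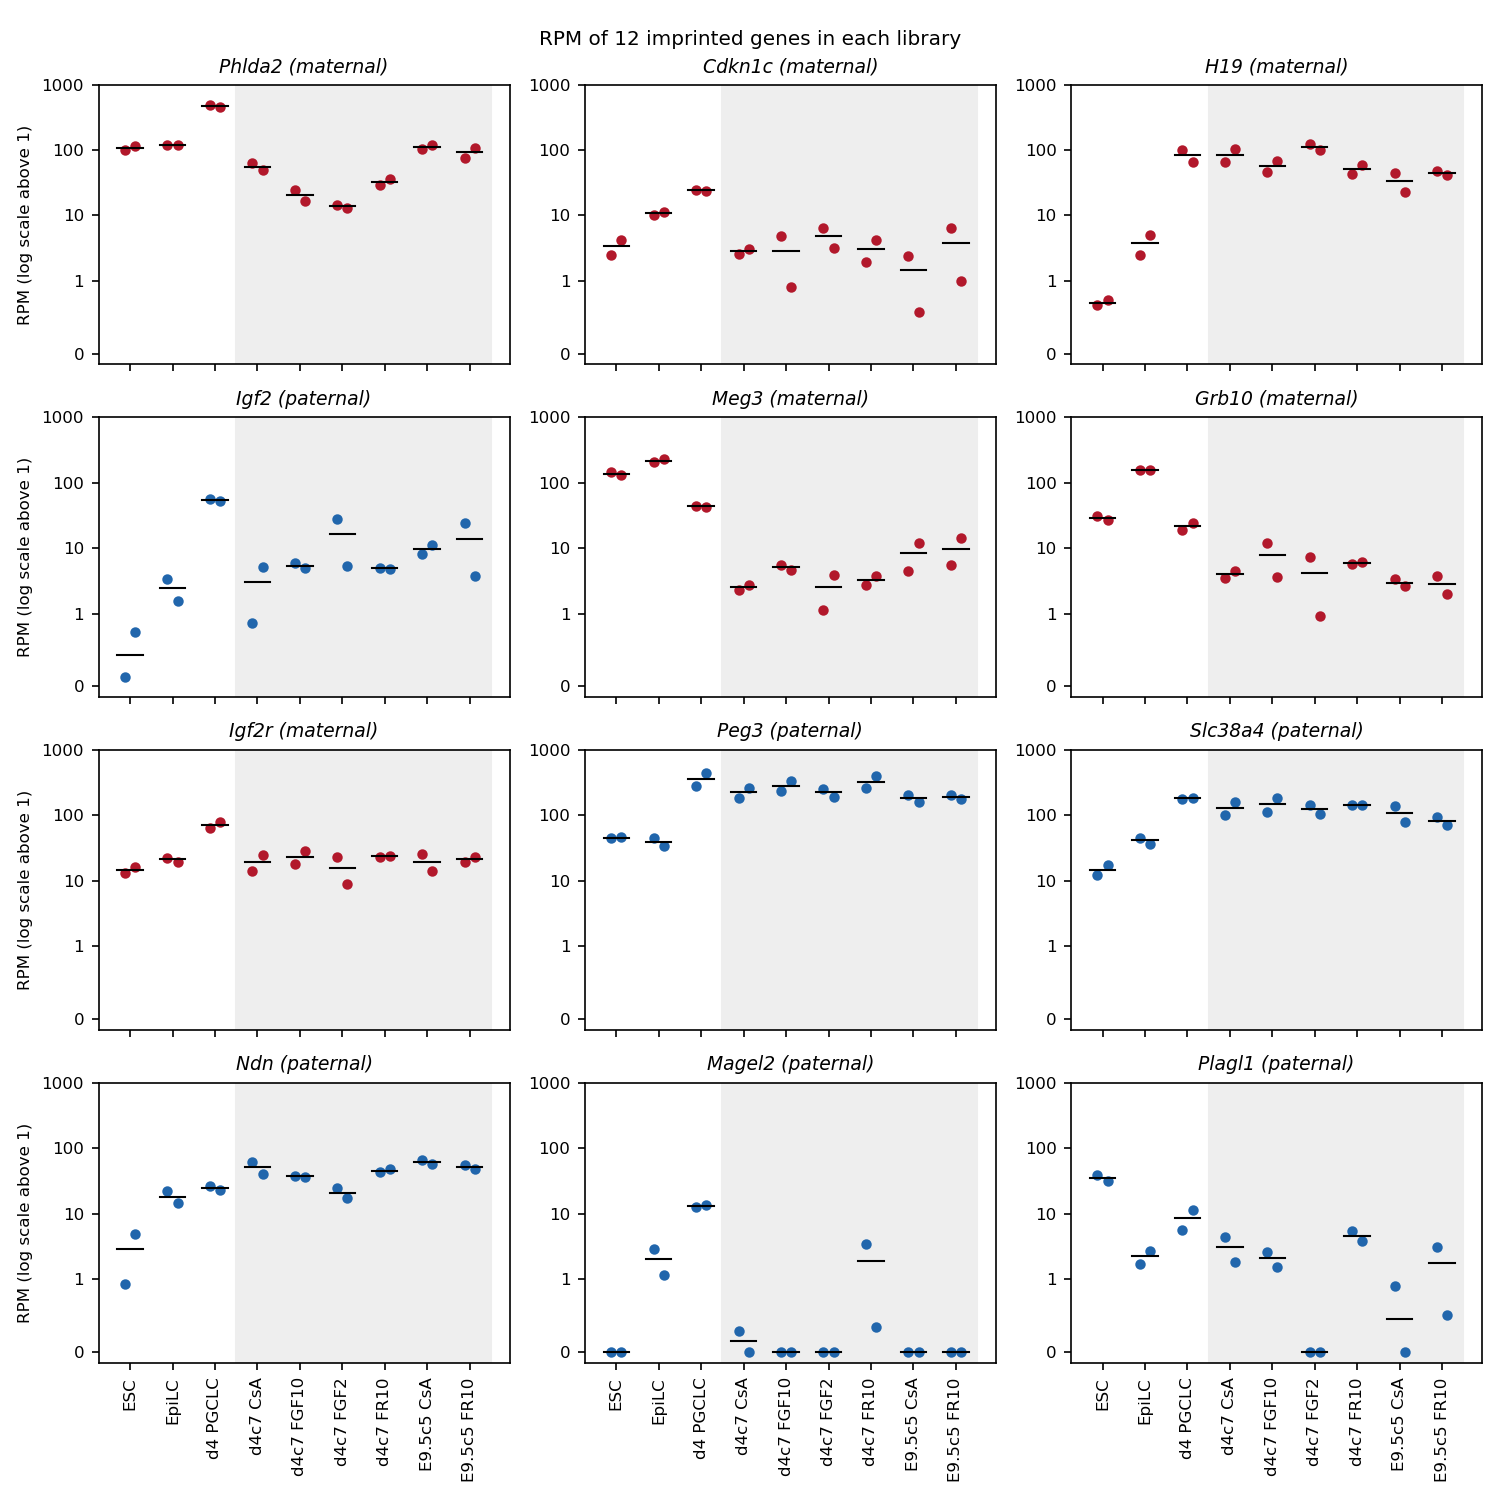
RPM (vertical axis, linear near 0 and logarithmic above) of 12 imprinted genes in the 9 groups, with a point for each library and a bar for the mean of 2, cultured groups in grey. Phlda2 stands at 478 and 459 RPM in day-4 PGCLCs and at 13.1 to 118 RPM in the cultured libraries, whereas Peg3 stays between 163 and 394 RPM there.

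After 7 days with FR10 the cultured PGCLCs had lower levels of 7 imprinted genes than day-4 PGCLCs and higher levels of none. All tested genes were called at 15.2%, 7.01% higher and 8.22% lower. The day-4 libraries are shared with the comparisons above, so a rise to day 4 and a fall after it are not independent. Phlda2 had 29.4 and 36.3 RPM in d4c7 FR10 and 478 and 459 RPM in day-4 PGCLCs, and it fell by 3.80 ± 0.24 (adjusted p = 6.37e-08). Meg3 had 2.71 and 3.8 RPM in d4c7 FR10 and 44.6 and 42.7 RPM in day-4 PGCLCs, and it fell by 3.40 ± 0.49 (adjusted p = 0.000186). Both are maternally expressed, and their levels in the 2 groups lie far apart.

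Cdkn1c had 1.94 and 4.14 RPM in d4c7 FR10 and 24.4 and 23.7 RPM in day-4 PGCLCs, and it fell by 2.69 ± 0.65 (adjusted p = 0.00956). Igf2 had 5.03 and 4.83 RPM in d4c7 FR10 and 55.4 and 51.9 RPM in day-4 PGCLCs, and it fell by 3.20 ± 0.76 (adjusted p = 0.00858). H19, its neighbour, had 43.4 and 58 RPM in d4c7 FR10 and 101 and 65.3 RPM in day-4 PGCLCs. Igf2 was thus lower in both cultured libraries than in either day-4 library, while H19, also lower in both, did not pass. The receptor gene Igf2r fell by 1.53 ± 0.42 (adjusted p = 0.0203), Magel2 by 2.52 ± 0.53 (adjusted p = 0.00399), with 3.49 and 0.345 RPM in d4c7 FR10 and 12.7 and 13.5 RPM in day-4 PGCLCs, and Impact by 0.95 ± 0.27 (adjusted p = 0.0224).

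Peg3, at 259 and 394 RPM in d4c7 FR10 and 281 and 449 RPM in day-4 PGCLCs, and Slc38a4, at 145 and 146 RPM in d4c7 FR10 and 180.3 and 183 RPM in day-4 PGCLCs, were not called. The 4 maternally expressed genes called had a class median of -0.63 over 14 and the 3 paternally expressed ones of -0.46 over 12, against -0.07 over all genes. Without any 1 of the 4 libraries 3 genes were called. Phlda2 and Meg3 kept the call throughout, Igf2, Igf2r and Impact lost it each time, Cdkn1c lost it without either day-4 library or d4c7 FR10 replicate 1, and Magel2 lost it without d4c7 FR10 replicate 2. Fewer of all genes were called as well whichever library was left out. Feeder and fibroblast markers were higher after culture: 4 of 8 tested rose and 0 fell, and the 13 summed to 228 and 185 RPM in d4c7 FR10 against 46 and 48.1 RPM in day-4 PGCLCs, with Dcn at 0 at day 4. Their part in these results was not tested.

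**Figure D4:**
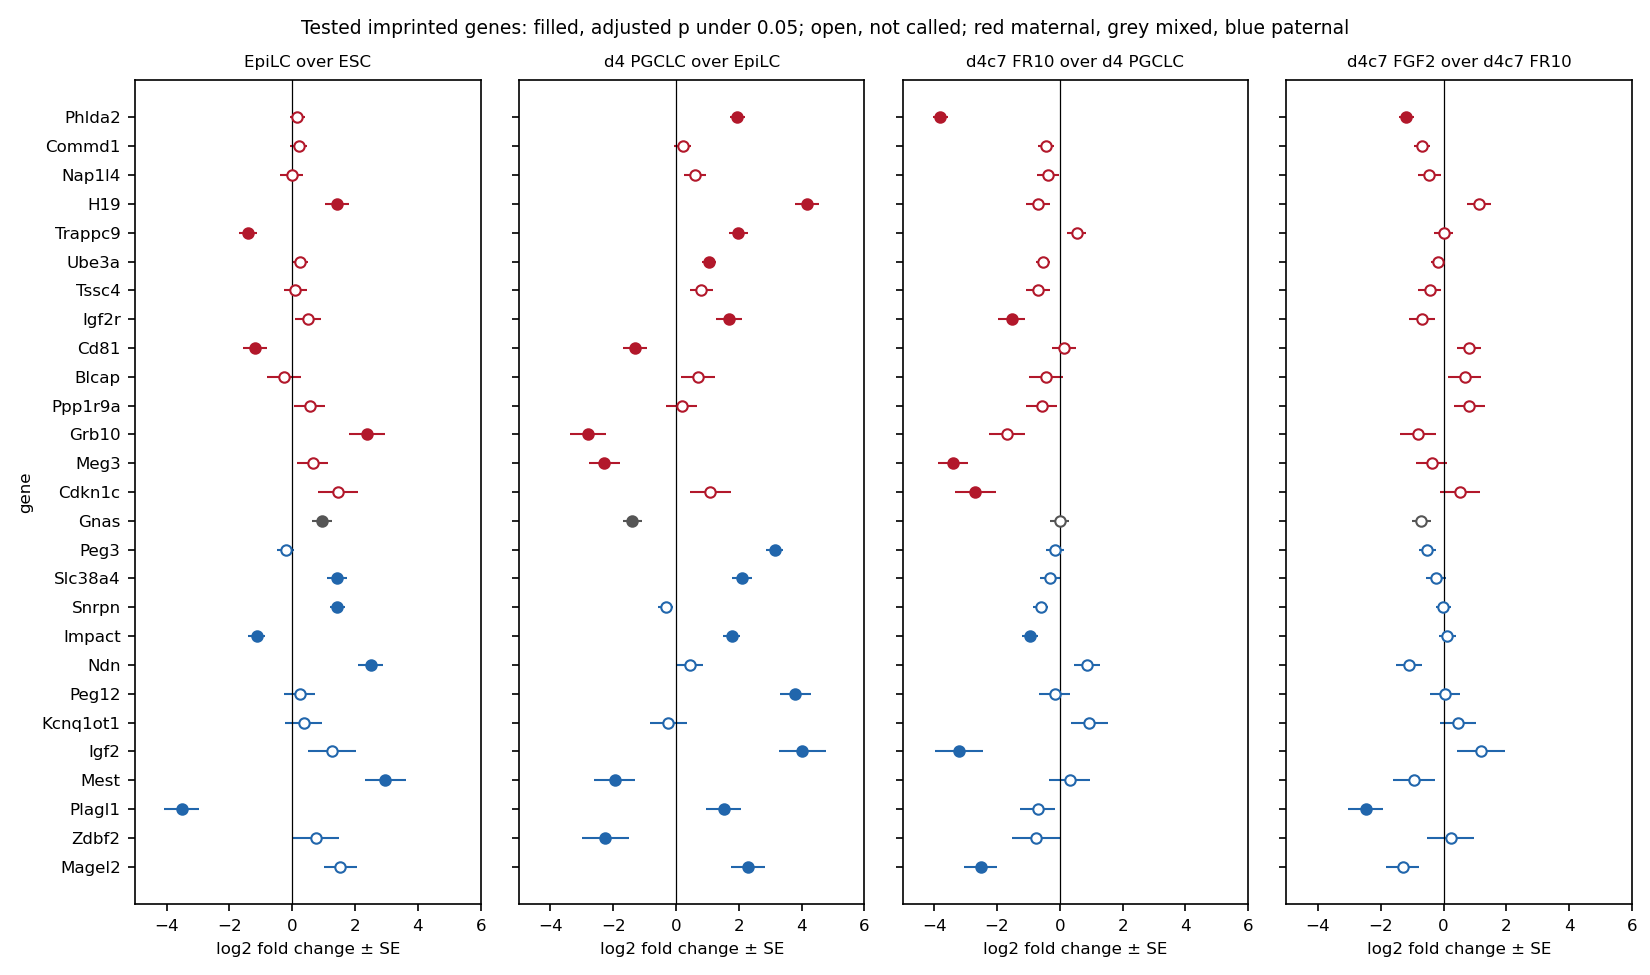
Log2 change with its SE (horizontal axis) of the 27 tested imprinted genes (rows) in EpiLC over ESC, day-4 PGCLC over EpiLC, d4c7 FR10 over day-4 PGCLC and d4c7 FGF2 over d4c7 FR10, filled where the adjusted p is under 0.05. Filled points lie on both sides of 0 in EpiLC over ESC (7 higher, 4 lower) and day-4 PGCLC over EpiLC (12 higher, 6 lower) and on the lower side alone in d4c7 FR10 over day-4 PGCLC (7 lower).

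The drug and growth factor conditions ask which signals let PGCLCs grow, and each was set against d4c7 FR10, whose 2 libraries all 3 comparisons share. With CsA 0 imprinted genes were called by limma and 1 of 27 had an unadjusted p under 0.05, where 0.0314% of all genes were called, 0.0209% higher and 0.0105% lower. Of all 9561 genes, 1317 had an unadjusted p under 0.05. Phlda2 had 62.5 and 48.9 RPM in d4c7 CsA and 29.4 and 36.3 RPM in d4c7 FR10, a difference of 0.74 ± 0.24 (adjusted p = 0.213). Both CsA libraries lay above both FR10 libraries. In a fit without the 3 libraries that stand apart, none of which is in this comparison, the adjusted p of the same difference was 0.0227, and 10.1% of all genes were called in that fit. Peg3 differed by -0.52 ± 0.28 (adjusted p = 0.413) and Magel2 by -1.11 ± 0.53 (adjusted p = 0.367), with 0.289 and 0 RPM in d4c7 CsA. With FGF10 limma called 0 imprinted genes and 2 of 27 had an unadjusted p under 0.05, where 0% of all genes were called and 477 of 9561 had an unadjusted p under 0.05. Phlda2 had 24.1 and 16.5 RPM in d4c7 FGF10 and differed by -0.68 ± 0.24 (adjusted p = 0.91), Plagl1 differed by -0.88 ± 0.56 (adjusted p = 0.979), and Magel2 was listed at 0 in both FGF10 libraries. These p-values do not show that the levels were alike. The feeder markers summed to 169 and 50.2 RPM in d4c7 CsA and to 264 and 51.1 RPM in d4c7 FGF10, so they varied more within each pair than for FR10.

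With FGF2 2 imprinted genes were lower than with FR10 and 0 higher, where 8.84% of all genes were called, 1.37% higher and 7.47% lower. Phlda2 had 14.5 and 13.1 RPM in d4c7 FGF2 and 29.4 and 36.3 RPM in d4c7 FR10, and it fell by 1.19 ± 0.24 (adjusted p = 0.0125). Plagl1 was listed at 0 in both FGF2 libraries and had 5.42 and 3.8 RPM in d4c7 FR10 (adjusted p = 0.0189). H19 had 125 and 100.1 RPM in d4c7 FGF2, above both FR10 libraries at 43.4 and 58 RPM, with a difference of 1.14 ± 0.38 that did not pass (adjusted p = 0.0689). The median difference over all genes was -0.33. After median-ratio scaling, which brought that median to -0.03 and gave 283 genes higher and 258 lower in place of 131 and 714, H19 was called at 1.45 (adjusted p = 0.03) and Phlda2, at -0.89, was not (adjusted p = 0.052). Without the 3 libraries that stand apart, replicate 2 of d4c7 FGF2 among them, 6 were called: Phlda2, Plagl1, Commd1 (-0.91 ± 0.27) and Tssc4 (-1.08 ± 0.34) lower, H19 (1.30 ± 0.40) and Igf2 (2.28 ± 0.61) higher, with the remaining FGF2 library assumed to vary like the others. That fit called 11.4% of all genes, and its FGF2 values are those of replicate 1 alone. Igf2 had 27.8 and 5.35 RPM in d4c7 FGF2, and Tssc4 had 9.13 and 23.3 RPM in d4c7 FGF2 and 18.2 and 22.8 RPM in d4c7 FR10, so the left-out FGF2 replicate lay near the FR10 libraries for Igf2, which had 5.03 and 4.83 RPM there, and above both for Tssc4. Phlda2 and Plagl1 lost the call without d4c7 FR10 replicate 1 or 2 or d4c7 FGF2 replicate 2, and 0 imprinted genes were then called. Fewer of all genes were called as well without any of these libraries. The calls of Phlda2 and Plagl1 were also lost when the model was fitted to only the 12 cultured libraries, with 2 genes called among all 9561 in place of 845. The feeder markers summed to 88.7 and 50.1 RPM in d4c7 FGF2 against 228 and 185 RPM in d4c7 FR10, and 2 of 8 fell. Their part in the differences was not tested.

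Across the 4 conditions of cultured PGCLCs the mean of Phlda2 was 55.7 RPM with CsA, 20.3 RPM with FGF10, 13.8 RPM with FGF2 and 32.8 RPM with FR10. The single libraries of these conditions do not overlap, but of the differences from FR10 that with FGF2 alone passed.

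In germ cells from E9.5 embryos, CsA against FR10 gave 0 called imprinted genes in limma, with 0 at an unadjusted p under 0.05, where 0% of all genes were called and 703 had an unadjusted p under 0.05. Trappc9 had 48.5 and 40.2 RPM in E9.5c5 CsA and 68 and 65.5 RPM in E9.5c5 FR10, a difference of -0.59 ± 0.30 (adjusted p = 0.7). Plagl1 differed by -0.84 ± 0.56 (adjusted p = 0.761) and Ube3a by -0.33 ± 0.23 (adjusted p = 0.762). Both E9.5 groups hold a replicate that stands apart, and the feeder markers summed to 97 and 31.3 RPM in E9.5c5 CsA and 90.5 and 97.2 RPM in E9.5c5 FR10. Without those replicates 0 imprinted genes and 0.0941% of all genes were called, and the differences were -0.48 for Trappc9 (adjusted p = 0.832), -1.09 for Plagl1 (adjusted p = 0.745) and -0.27 for Ube3a (adjusted p = 0.882). The effect of CsA in E9.5 cells minus that in PGCLCs was called for 0 genes, with 1 imprinted gene at an unadjusted p under 0.05, H19, at -1.17 ± 0.54 (adjusted p = 0.77). H19 had 44 and 22.6 RPM in E9.5c5 CsA and 47 and 41.2 RPM in E9.5c5 FR10, and 65.4 and 103 RPM in d4c7 CsA and 43.4 and 58 RPM in d4c7 FR10. The same difference was 1.52 ± 0.93 for Mest (adjusted p = 0.867) and 0.54 ± 0.36 for Commd1, a copper transport gene (adjusted p = 0.868). Without the replicates that stand apart 0 genes were called, and the values were -0.79 for H19 (adjusted p = 0.558), 2.53 for Mest (adjusted p = 0.193) and 0.71 for Commd1 (adjusted p = 0.403).

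E9.5c5 FR10 was also set against d4c7 FR10, cells from the embryo against cells made in vitro, which differ in strain, reporter and days of culture as well. Of the imprinted genes 1 rose and 0 fell, where 0.0418% of all genes were called. Phlda2 had 75.2 and 108 RPM in E9.5c5 FR10 and 29.4 and 36.3 RPM in d4c7 FR10, a rise of 1.44 ± 0.24 (adjusted p = 0.0429). It was 1.18 ± 0.24 in the fit without the 3 libraries that stand apart, E9.5c5 FR10 replicate 2 among them (adjusted p = 0.043), and without that replicate alone, or without d4c7 FR10 replicate 1 or 2, the call was lost, as it was when only the 12 cultured libraries entered the fit. Peg3 differed by -0.74 ± 0.28 (adjusted p = 0.26) and Slc38a4 by -0.84 ± 0.31 (adjusted p = 0.263). The median difference over all genes was -0.20, and -0.02 after median-ratio scaling, where Phlda2 was still called. Magel2 was listed at 0 in all 4 E9.5 libraries. The feeder markers summed to 90.5 and 97.2 RPM in E9.5c5 FR10 against 228 and 185 RPM in d4c7 FR10. The E9.5c5 FR10 sums were near those of ESCs, at 89.6 and 105 RPM. The part of these markers here was not tested.

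Of the 27 tested genes 21 were called in at least 1 of the 10 comparisons, Phlda2 in 5 and Plagl1 in 4, and 6 in none: Kcnq1ot1, a noncoding RNA that silences its neighbours, Tssc4, Nap1l4, Ppp1r9a, Commd1 and Blcap. These 6 still varied, Kcnq1ot1 from 4.27 to 40.3 RPM over the 12 cultured libraries. How many of all genes tested were called in at least 1 comparison was not counted. Many of the comparisons also share libraries, so the calls of a gene are not independent of each other.

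Genes of a domain were not all called alike. Distal chromosome 7, between H19 (chr7:142575530-142578146) and Nap1l4 (chr7:143513579-143549882), holds the Igf2-H19 domain and the Kcnq1 domain. In the Igf2-H19 domain both H19 and Igf2 rose at PGCLC formation. In the Kcnq1 domain Phlda2 rose and Cd81 fell. Tssc4 of that domain had 37.1 and 29.9 RPM in day-4 PGCLCs and 19 and 18.2 RPM in EpiLCs. Nap1l4 had 61.1 and 74 RPM in day-4 PGCLCs and 47.4 and 40.6 RPM in EpiLCs. Both were thus higher in both day-4 libraries too, by 0.81 ± 0.38 and 0.60 ± 0.36, but did not pass. In the domain of Snrpn, Ndn, Magel2, Peg12 and Mkrn3, all paternally expressed, Ndn stayed between 17 and 64.8 RPM and Peg12 between 5.93 and 32.4 RPM in the 12 cultured libraries, while Magel2 was listed at 0 in 9 of them. On chromosome 12 the maternally expressed Meg3 ranged from 1.14 to 14.1 RPM in the cultured libraries, and its neighbours were lower. Mirg had 8.35 and 8.88 RPM in ESCs, 5.71 and 8.13 RPM in EpiLCs and 5.17 and 2.9 RPM in day-4 PGCLCs and was listed at 0 in 8 of 12 cultured libraries. Rian reached 0.774 RPM at most, and Dlk1, the paternally expressed Notch-family ligand gene of that domain, was listed at 0 in all libraries but 2, at 0.381 and 0.34 RPM.

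The other untested genes were also low. Ascl2, a transcription factor gene of the placenta, and Slc22a18, a transporter gene, passed 10 RPM in 1 library each, at 13.1 RPM in day-4 PGCLC replicate 1 and 10.3 RPM in ESC replicate 1. Mkrn3 reached 8.69, Asb4 5.21, Sgce 4.34, Nap1l5 4.19, Usp29 2.71, Zim1 2.28, Nnat 1.93 and Peg10 0.772 RPM. Usp29, which starts beside Peg3, was at 0 RPM in both day-4 libraries, the group with the highest mean of Peg3. Usp29 was above 0 in only 10 of the 18 libraries, so these values near 0 do not show that the pair differed.

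Of the enzymes and proteins that set, keep or remove imprints, 12 of 15 listed were tested. In EpiLCs against ESCs 2 rose, the de novo methyltransferase genes Dnmt3a (4.25 ± 0.40, adjusted p = 1.06e-06) and Dnmt3b (3.67 ± 0.32, adjusted p = 4.27e-07), and 2 fell, Dppa3 (-2.69 ± 0.24, adjusted p = 7.65e-07), which protects methylation in the early embryo, and Tet1 (-0.72 ± 0.20, adjusted p = 0.0211), which oxidises methylcytosine. In day-4 PGCLCs against EpiLCs 3 rose and 4 fell. Dnmt3b fell by 8.37 ± 0.32 (adjusted p = 8.59e-12), to 3.29 and 3.09 RPM in day-4 PGCLCs against 1414 and 1351 RPM in EpiLCs, Dnmt3l fell by 5.12 ± 0.58 (adjusted p = 4.44e-06) and Dppa3 rose by 4.61 ± 0.24 (adjusted p = 6.27e-10). Of the pair that copies methylation after replication, Uhrf1 had 7.51 and 10.8 RPM in day-4 PGCLCs and 98.7 and 112 RPM in EpiLCs, and it fell by 3.40 ± 0.41 (adjusted p = 7.37e-06), while Dnmt1 had 266 and 224 RPM in day-4 PGCLCs and 97 and 104 RPM in EpiLCs and rose by 1.27 ± 0.25 (adjusted p = 0.000778). The remaining calls were Tet1, which rose, and Dnmt3a, which fell. In the cultured groups the means of Uhrf1 lay between 2.37 and 10.3 RPM. In d4c7 FR10 against day-4 PGCLCs 2 rose, Dnmt3b by 2.48 ± 0.32 (adjusted p = 6.35e-05) and Dppa3 by 1.10 ± 0.24 (adjusted p = 0.00571), and the chromatin remodeller gene Hells fell by 1.00 ± 0.31 (adjusted p = 0.0402). With FGF2 against FR10 2 rose, Dnmt3l by 3.39 ± 0.58 (adjusted p = 0.00711) and Dnmt3b by 1.50 ± 0.32 (adjusted p = 0.015), and Hells, by 1.43 ± 0.31 (adjusted p = 0.0181), Dppa3, Zfp445 and Tet1 fell. Methylation itself was not measured in these libraries.

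A further list held 35 imprinted genes, 34 of them with values and 12 of them tested. In EpiLCs against ESCs 2 rose and 0 fell, Copg2 and Inpp5f (1.88 ± 0.45, adjusted p = 0.00736). In day-4 PGCLCs against EpiLCs 2 rose, the lipid flippase gene Atp10a (2.67 ± 0.34, adjusted p = 1.46e-05) and Sfmbt2 (2.65 ± 0.35, adjusted p = 2e-05), a Polycomb-related gene, and 2 fell, Copg2 and H13. In d4c7 FR10 against day-4 PGCLCs Copg2 alone was called, higher by 1.45 ± 0.36 (adjusted p = 0.0129), and with FGF2 against FR10 2 fell, Atp10a by 1.53 ± 0.34 (adjusted p = 0.0189) and Inpp5f by 1.50 ± 0.45 (adjusted p = 0.0465).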

How the data were processed

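The deposited values are RPM, reads scaled by the authors to a total of 1000000, 1 value per gene and library, with no correction for transcript length. Per the labels' protocols libraries were SC3-seq, and cultured samples were biological replicates. Per the submitters' processing notes, cutadapt 1.3, TopHat 1.4.1, Cufflinks 2.2.0 and mm10 were used, with no role stated for each and no strand setting for the counting. Totals ran from 999098 to 999617 RPM. Depth was inferred from the smallest step between values (99.7% to 99.9% of low values were whole multiples within 0.02 read) and covers counting error only. Since 33 to 57 values per library lay below the step, no whole read numbers were derived and no test on counts was run.

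Of 34896 genes, 46 had no value. Genes with at least 10 RPM in at least 2 libraries (9561) were fitted as log2(RPM + 1), with a pseudocount of 1 that understates changes of low genes, in limma 3.58.1 (R 4.3.3) with a variance trend, 9 group means and 9 residual degrees of freedom. Adjusted p-values are Benjamini-Hochberg over all genes tested. The members and lists were chosen with earlier results of these data known. Of the 40 genes, every called one was to be named, up to 12 by smallest p, and up to 3 of smallest p as values where fewer were called; of the other lists, up to 3 called genes. List genes named beyond these (Uhrf1, Dnmt1, Dnmt3a, Tet1, Dppa3, Zfp445, H13) were chosen after their values were seen. At day 4, genes called beyond 12 are also named. The fit was tested on simulated data. Replicate numbers pair no samples by any label. Alternatives were pseudocounts of 0.1 and 10, no filter, 50 RPM, median-ratio scaling, a replicate block, a fit of groups cultured alike (the 12 cultured libraries for comparisons among them), and leaving out libraries.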

Additional observations from a re-analysis of the deposited data

How the results depend on the processing

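No named change reversed. Of the values of single genes under the alternatives, 661 kept their side of the threshold, 54 lost the call and 4 gained it. A fit limited to groups cultured alike called 0 genes in d4c7 FGF2 over d4c7 FR10 (2 in the fit of all groups, where all genes called were 845 against 2) and 0 in E9.5c5 FR10 over d4c7 FR10 (1). The cause was not tested. A filter of 50 RPM called 1 with FGF2, over fewer genes tested. Without the 3 libraries that stand apart, 6 were called with FGF2 and 1 with CsA (0 with all libraries). Leaving out 1 library at a time, with the lone sample assumed to vary like the other groups, gave 6 to 7 in EpiLC over ESC, 14 to 16 in d4 PGCLC over EpiLC, 12 to 14 in d4 PGCLC over ESC, 3 in d4c7 FR10 over d4 PGCLC, 0 to 3 with FGF2 and 0 to 1 in E9.5c5 FR10 over d4c7 FR10. Fewer of all genes were called as well, whichever library was left out, in the comparisons among ESCs, EpiLCs and day-4 PGCLCs and in d4c7 FR10 over d4 PGCLC. The replicate numbers only name the samples: deviations of same-numbered samples correlated between -0.030 and 0.340, with E9.5c5 CsA over FR10 highest. A fit with the replicate block called 11, 18, 15, 8, 2 and 1 imprinted genes in EpiLC over ESC, d4 PGCLC over EpiLC, d4 PGCLC over ESC, d4c7 FR10 over d4 PGCLC, FGF2 and E9.5c5 FR10 over d4c7 FR10. Over all genes that fit gave, in the same order, 728, 2727, 2443, 719, 190 and 4 higher and 893, 1211, 1007, 836, 973 and 4 lower. Over all genes, median-ratio scaling gave 7 higher and 1 lower with CsA in place of 2 and 1. With 2 libraries a group, genes near 10 RPM are the least precise, and 13 of the 40 were too low to be tested.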

Other observations

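With genes above 0 in at least 2 libraries all fitted, 12 of the 13 untested imprinted genes entered and 5 passed in at least 1 comparison. Over all 18761 genes in that fit 12.4% were called in EpiLC over ESC, 25.1% in d4 PGCLC over EpiLC, 20.1% in d4 PGCLC over ESC, 8.43% in d4c7 FR10 over d4 PGCLC and 2.64% in d4c7 FGF2 over d4c7 FR10. Nnat, which encodes a membrane protein of the brain, had 1.52 and 1.93 RPM in EpiLCs and at most 0.265 RPM in ESCs, and was listed at 0 in day-4 PGCLCs and in all 12 cultured libraries (adjusted p = 7.1e-05 in EpiLC over ESC, limma). Nap1l5 had 4.19 and 1.55 RPM in EpiLCs and was listed at 0 in both ESC and both day-4 libraries (adjusted p = 0.0042 against ESC). Slc22a18 had 1.9 and 0.774 RPM in EpiLCs and 10.3 and 7.77 RPM in ESCs, and it fell by 2.13 ± 0.56 (adjusted p = 0.0246). Asb4 had 2.82 and 5.21 RPM in day-4 PGCLCs and 0.381 and 0 RPM in EpiLCs (adjusted p = 0.00266), and was listed at 0 in both FGF2 libraries against 2.32 and 3.45 RPM in d4c7 FR10 (adjusted p = 0.0317). Mirg was listed at 0 in both d4c7 FR10 libraries against 5.17 and 2.9 RPM in day-4 PGCLCs (adjusted p = 0.0304).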
